A study of Mus musculus with 12 samples.

Results

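Genes of the anterior pituitary, which make or control its hormones, were followed through 12 libraries of mouse hypothalamus. They are Gh, Prl, Cga, Tshb, Lhb, Fshb, Pitx1, Pou1f1 and Ghrhr, 9 of the 78334 gene IDs in the count table, and each was found by matching its ID to the symbol. The set was drawn up when high counts of Gh in 1 library were already known, so the levels below describe these libraries and are not tested. All mice were male C57BL/6. The control group (n = 3) ate a standard diet and was gavaged with vehicle. The diabetes group (DM, n = 4) had received streptozotocin, a toxin of insulin-producing cells, at 70 mg/kg into the peritoneum on postnatal day 2, ate a diet with 60% of its energy as fat for 8 weeks from week 3 of age, and was gavaged with vehicle. The curcumin group (DMCUR, n = 3) had the same injection and diet with curcumin at 50 mg/kg, and the garlic group (DMEAE, n = 2) the same with aged garlic extract at 200 mg/kg, each given daily for 28 days. The labels start these treatments at week 7 of the diet while the design text gives a later start. Injection and diet went together in 3 groups and were absent from the control, so their parts cannot be told apart.

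The anterior pituitary is a gland that hangs from the base of the hypothalamus by a stalk. Its cell types each secrete their own hormone: somatotrophs release growth hormone, lactotrophs prolactin, thyrotrophs thyrotropin and gonadotrophs luteinising and follicle-stimulating hormone. The last 3 of these hormones are pairs of a shared alpha subunit, encoded by Cga, and a specific beta subunit. The pars tuberalis, a thin layer of pituitary cells that wraps the stalk and the median eminence, also expresses Cga and Tshb, and lies against the hypothalamus. Neurons of the hypothalamus drive the gland through releasing factors, which its cells detect with receptors such as Ghrhr. In bulk tissue a lower level can mean fewer cells of a type or less RNA per cell, and these cannot be told apart.

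The proximal promoters of 3 members are shown because they place a gene that was high in 1 library (Prl), a subunit gene high in that library and present in another diabetes library (Cga), and a subunit gene with no count anywhere (Lhb) beside each other. Each run is the 250 bases before the RefSeq start site on GRCm38.p6, at chr13:27057320-27057569, chr4:34893529-34893778 and chr7:45420696-45420945, all on the plus strand. Capitals mark TATNCAT, a core of sites bound by POU1F1, or AAGGTCA, a core of sites bound by SF1, on either strand.
Prl: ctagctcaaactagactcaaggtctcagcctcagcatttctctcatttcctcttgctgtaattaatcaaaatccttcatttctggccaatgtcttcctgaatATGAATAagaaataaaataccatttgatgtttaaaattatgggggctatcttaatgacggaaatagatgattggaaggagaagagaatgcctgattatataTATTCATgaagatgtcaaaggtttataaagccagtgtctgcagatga
Cga: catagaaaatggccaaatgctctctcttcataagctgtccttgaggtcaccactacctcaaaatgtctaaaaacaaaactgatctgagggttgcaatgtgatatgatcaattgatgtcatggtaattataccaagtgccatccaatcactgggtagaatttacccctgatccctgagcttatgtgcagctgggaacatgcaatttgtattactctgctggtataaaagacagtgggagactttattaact
Lhb: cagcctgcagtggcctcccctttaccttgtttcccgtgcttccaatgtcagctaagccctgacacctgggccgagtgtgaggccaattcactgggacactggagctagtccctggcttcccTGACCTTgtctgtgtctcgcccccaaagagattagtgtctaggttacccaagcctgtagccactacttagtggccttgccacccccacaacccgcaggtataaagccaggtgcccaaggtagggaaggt
The table held promoters for 6 of the 9 members: these 3, Tshb, Fshb and Pou1f1. TATNCAT, which does not overlap the other motifs in Prl, was found in Prl at 148 to 142 and at 47 to 41 bases before the start, and in Pou1f1 at 57 to 51 bases before it, where it shares letters with a TATAAA match. It was in 7.82% of all 32526 promoter windows of this length. AAGGTCA was found in Lhb alone among the 6, on the minus strand 129 to 123 bases before the start, and in 4.09% of all windows. TATAAA, the core of the TATA box, was in all 6 and in 12.3% of all windows, and TAATCC, a core of sites bound by PITX factors, was in 0 of the 6 and in 6.25% of all windows. A match is a run of letters and says nothing of binding in these samples.

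A pair of libraries stood apart. Diabetes replicate 4 did so by the members themselves, since it held most of the pituitary counts described below. Curcumin replicate 2 was labelled hypothalamus but had a summed level of 45.2 CPM (counts scaled to a fixed library size) over 16 transcription factors that define hypothalamic neurons, against 255 to 418 CPM in the other 11 libraries. Nkx2-1, a factor that defines the ventral hypothalamus, was at 0.0497 CPM there and between 28.6 and 56.8 CPM elsewhere. Library totals ran from 12950017 to 30271706 counts.

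The libraries also differed in how well they resolved scarce transcripts, which bears on every count of 0 below. In control replicate 1, 5491 gene IDs had 4 to 10 counts and 3740 had 11 to 30. In diabetes replicate 1 these numbers were 337 and 2191, and the commonest count above 5 was 24. All 4 diabetes libraries and curcumin replicates 1 and 3 had fewer IDs at 4 to 10 counts than at 11 to 30, by ratios of 0.154 to 0.501, while the ratio was 0.961 to 1.79 in the other 6 libraries. Among genes that averaged 1 to 2 CPM in the other 11 libraries, 20.2 to 34.5% had a count of 0 in the 4 diabetes libraries, as did 33.7% and 22.4% in curcumin replicates 1 and 3. The share was 0.18 to 5.84% in the 3 control libraries, 1.98% in curcumin replicate 2 and 0.18% and 2.55% in the garlic libraries. A count of 0 formally allows up to 3 counts, or 0.106 to 0.261 CPM by library, but in the 6 libraries with few low counts a 0 limits a gene's level less tightly than that. All 4 untreated diabetes libraries and none of the 3 control libraries had sparse low counts, so for genes near 1 CPM the group and the sparseness cannot be told apart.

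**Figure D1:**
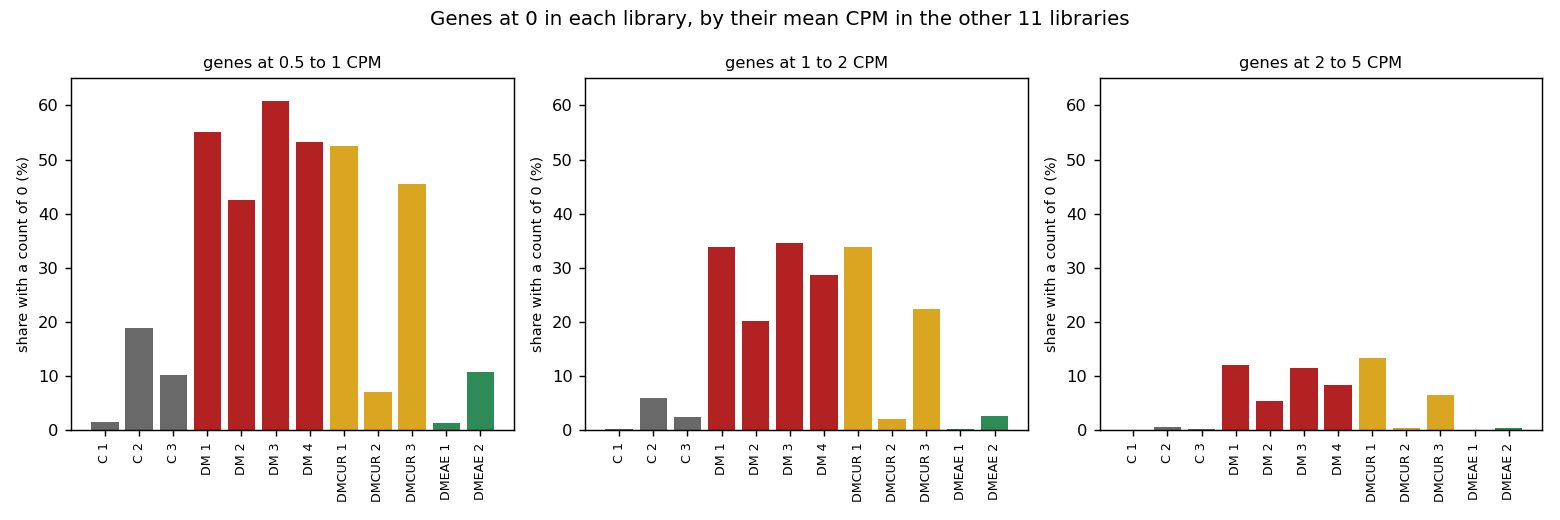
Share of gene IDs with a count of 0 in each of the 12 libraries (vertical axis, percent), for genes whose mean over the other 11 libraries was 0.5 to 1, 1 to 2 or 2 to 5 CPM (bars: grey control, red diabetes, yellow curcumin, green garlic extract). At 1 to 2 CPM the 4 diabetes libraries and curcumin replicates 1 and 3 sat between 20.2 and 34.5%, and the other 6 libraries at or below 5.84%.

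Growth hormone and prolactin carried most of the signal, nearly all of it in 1 diabetes library. Gh (ENSMUSG00000020713), the growth hormone of somatotrophs, had 14171 counts in diabetes replicate 4, which is 732 CPM (exact Poisson 95% interval 720 to 745). It had 0 counts in diabetes replicates 1, 2 and 3. In control it stood at 3.67, 0 and 8.43 CPM in replicates 1 to 3, in curcumin at 0, 0.0497 and 8.23 CPM, and in garlic extract at 1.82 and 1.05 CPM. The group means were 4.04 ± 4.23 CPM in control (SD, n = 3), 183 ± 366 CPM in diabetes (n = 4), 2.76 ± 4.74 CPM in curcumin (n = 3) and 1.44 ± 0.540 CPM in garlic extract (n = 2), and without replicate 4 the diabetes mean was 0 CPM. Diabetes was thus the group with both the highest library and 3 of the 5 libraries at 0, and every pair of groups overlapped. Replicate 4 was 86.9-fold above the next library, control replicate 3, and held 96.6% of all Gh counts.

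Prl (ENSMUSG00000021342), the prolactin of lactotrophs, followed the same libraries at a lower level. It was at 97.4 CPM in diabetes replicate 4 (interval 93.0 to 102) and at 0 in diabetes replicates 1 to 3. Control replicates 1 to 3 were at 0.886, 0 and 4.58 CPM, curcumin replicates at 0, 0 and 4.86 CPM, and garlic replicates at 0.620 and 0 CPM. All 5 libraries with Prl counts also had Gh counts, while 2 libraries, curcumin replicate 2 and garlic replicate 2, had Gh counts alone. Replicate 4 held 89.0% of all Prl counts, 20.1-fold above the next library.

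The balance of the 2 hormones was not constant. Prl made up 11.7% of the Gh and Prl counts in diabetes replicate 4 (exact Clopper-Pearson 95% interval 11.2 to 12.2). It made up 35.2% in control replicate 3 (29.7 to 41.0), 37.1% in curcumin replicate 3 (31.3 to 43.3), 19.4% in control replicate 1 (12.5 to 28.2) and 25.5% in garlic replicate 1 (14.7 to 39.0), whose intervals all lay above that of diabetes replicate 4. The share was 0% of 20 counts in garlic replicate 2 (up to 16.8). These intervals cover counting error only, because reads copied from 1 molecule by PCR are not independent.

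Cga (ENSMUSG00000028298), the alpha subunit shared by 3 hormones, was at 19.4 CPM in diabetes replicate 4 and at 1.69 CPM, or 30 counts, in diabetes replicate 2. Garlic replicate 2 had 5 counts, and the other 9 libraries had 0, among them all control and all curcumin libraries. Replicate 4 held 91.5% of the counts of this gene and stood 11.5-fold above replicate 2. In the GENCODE M21 gene models 305 of its 954 exonic bases, or 32.0%, lie under Platr9 on the opposite strand, which had 7 counts in garlic replicate 2 and 0 in every other library. Garlic replicate 2 is therefore the library where reads of Cga and Platr9 may have been mixed.

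The beta subunits that pair with Cga had 3 different patterns. Tshb (ENSMUSG00000027857), the beta subunit of thyrotropin, was the member present most widely, with counts in 11 of 12 libraries. It stood at 1.65, 0.774 and 2.18 CPM in control replicates 1 to 3 and at 1.48, 2.20, 2.18 and 3.93 CPM in diabetes replicates 1 to 4. It was at 1.47, 0.993 and 0 CPM in curcumin replicates and at 2.44 and 1.42 CPM in garlic replicates. Diabetes replicate 4 was only 1.61-fold above the next library and held 18.3% of the counts of Tshb, against 89.0% or more for Gh, Prl and Cga. The means were 1.53 ± 0.708 CPM in control, 2.45 ± 1.04 CPM in diabetes, 0.820 ± 0.749 CPM in curcumin and 1.93 ± 0.718 CPM in garlic extract. Without diabetes replicate 4 the diabetes mean of Tshb was 1.95 ± 0.406 CPM, and without curcumin replicate 2 the curcumin mean was 0.734 ± 1.04 CPM. In order of mean over all libraries, neighbouring groups differed by less than the larger of their SDs. Every curcumin library lay below every diabetes library, but by a gap of 1.47 to 1.48 CPM between the nearest 2, whose counting intervals (0.997 to 2.08 and 1.07 to 2.01) overlap. The gene lies inside Tspan2 on the opposite strand and shares 0 exonic bases with it.

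Fshb (ENSMUSG00000027120), the beta subunit of follicle-stimulating hormone, had 70 counts (3.62 CPM) in diabetes replicate 4. It had 2 counts each in control replicate 3 and garlic replicate 1 and 0 in the other 9 libraries. Lhb (ENSMUSG00000100916), the beta subunit of luteinising hormone, had 0 counts in all 12 libraries, diabetes replicate 4 included, where 3 counts would be 0.155 CPM. In the M21 models 138 of its 678 exonic bases, or 20.4%, are shared with Ruvbl2 on the opposite strand. How the counting treated such shared bases is not given in the sources used here, so this 0 may not describe the transcript.

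The receptor and the transcription factors did not follow Gh. Ghrhr (ENSMUSG00000004654), the receptor through which growth hormone-releasing hormone acts on somatotrophs, had 8 counts in control replicate 2 (0.442 CPM), 5 in garlic replicate 2 (0.263 CPM) and 0 in the other 10 libraries, including diabetes replicate 4. Pou1f1 (ENSMUSG00000004842), the POU-domain factor that somatotrophs, lactotrophs and thyrotrophs require, had 2 counts in garlic replicate 1, 4 in garlic replicate 2 and 0 elsewhere. Both genes were thus at 0 in the library that held 14171 counts of Gh. The 6 libraries with few low counts had no member at 1 to 10 counts, so single-digit counts like these were seen only in the other libraries. In diabetes replicate 4 itself, 53.3% of genes that averaged 0.5 to 1 CPM elsewhere, and 28.6% of those at 1 to 2 CPM, had a count of 0.

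Pitx1 (ENSMUSG00000021506), a homeodomain factor of the whole anterior pituitary, was highest in diabetes replicate 4 at 8.89 CPM but was not tied to it. Diabetes replicates 1, 2 and 3 were at 1.27, 5.91 and 0 CPM, from 36, 105 and 0 counts. Control replicate 1 had 1 count and control replicates 2 and 3 had 0. Curcumin replicates 1 to 3 stood at 0, 1.09 and 0 CPM and garlic replicates at 0.0443 and 0.421 CPM. Diabetes replicates 1 and 2 therefore had Pitx1 with no Gh or Prl count, and control replicate 3 and curcumin replicate 3 had Gh and Prl with no Pitx1 count. The diabetes mean was 4.02 ± 4.12 CPM with all 4 libraries and 2.40 ± 3.11 CPM without replicate 4.

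**Figure D2:**
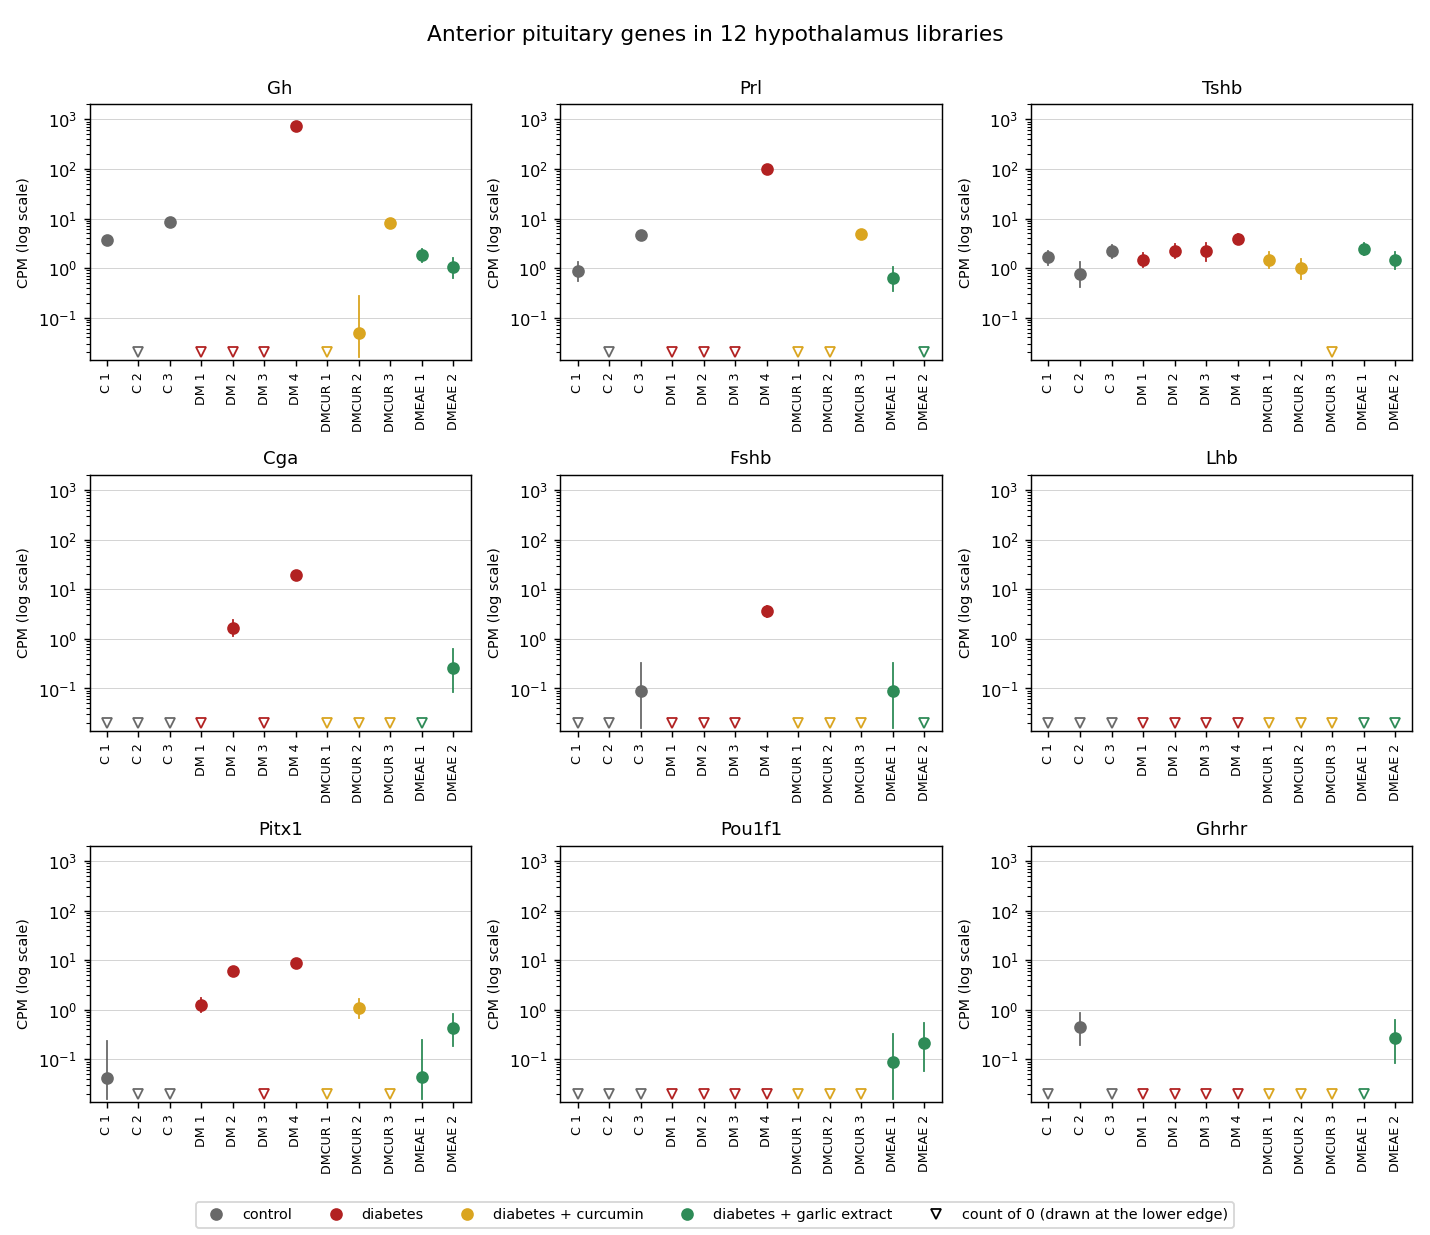
CPM of each of the 9 genes in each library (vertical axis, log scale), with exact Poisson 95% intervals as bars and counts of 0 as open triangles at the lower edge. Gh, Prl, Cga and Fshb peak in diabetes replicate 4 at 732, 97.4, 19.4 and 3.62 CPM, Tshb varies between 0 and 3.93 CPM, and Lhb is at 0 throughout.

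The members highest in diabetes replicate 4 numbered 6 (Gh, Prl, Cga, Tshb, Fshb and Pitx1) and 3 were at 0 there (Lhb, Pou1f1 and Ghrhr). Per kilobase of exon the order in that library was Gh at 850, Prl at 69.2, Cga at 20.4, Pitx1 at 3.35, Fshb at 2.26 and Tshb at 0.862 CPM per kilobase. The 9 genes together took 16749 counts there, or 0.0842% of the library (0.0830 to 0.0855), and 22 to 337 counts in each of the other 11 libraries. Their make-up differed too: Gh was 84.6% of the member counts in diabetes replicate 4, and Tshb was 100% in diabetes replicate 3 and curcumin replicate 1. In diabetes replicate 4, 3 members (Gh, Prl and Cga) were among the gene IDs at 5 CPM or more and at least 10-fold above every other library. Other libraries had such genes as well, 6 in curcumin replicate 1, 9 in curcumin replicate 2 and 2 in garlic replicate 2, and none of these was a member.

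**Figure D3:**
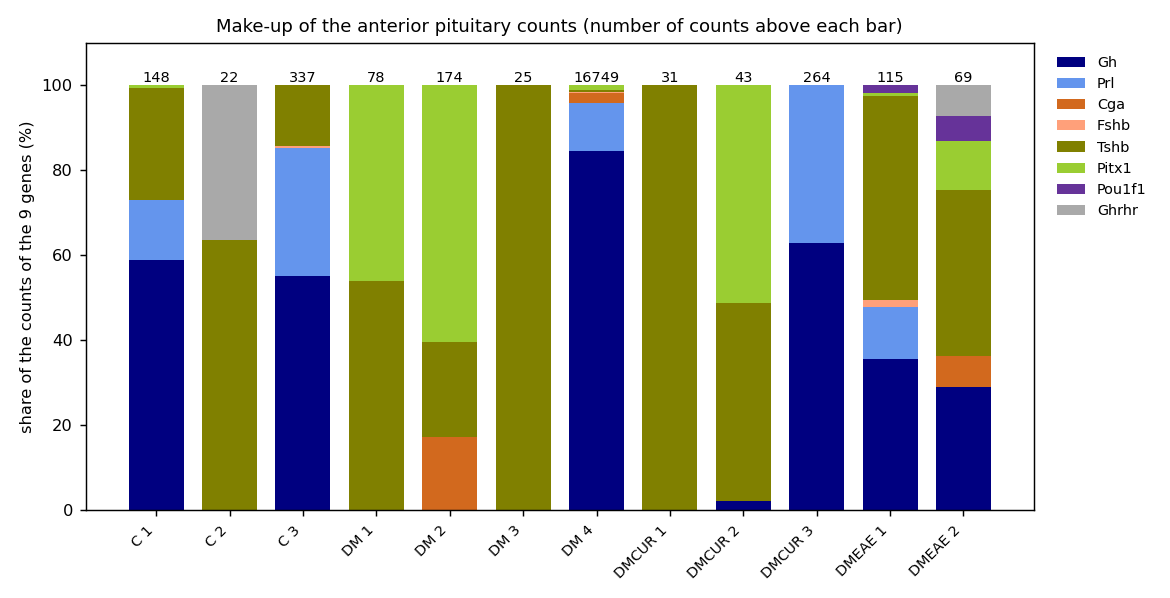
Make-up of the member counts in each library (vertical axis, percent of the counts of the 9 genes, stacked by gene), with the number of counts above each bar. Gh fills 84.6% of 16749 counts in diabetes replicate 4, whereas Tshb alone makes up diabetes replicate 3 and curcumin replicate 1, which had 25 and 31 counts. Lhb has no counts and no segment.

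Some marker lists of other tissues were also highest in diabetes replicate 4. The summed level of 6 blood genes was 1755 CPM there, against 264, 469 and 406 CPM in diabetes replicates 1 to 3. Control libraries were at 87.5 to 196 CPM, and curcumin replicate 2, with 43 member counts, was at 504 CPM. The other treated libraries were at 115 to 154 CPM. In diabetes replicate 4 the 4 globin genes supplied the sum, while Slc4a1, the anion exchanger of red cells, was at 0. The 6 genes of meninges and connective tissue, all with counts, summed to 230 CPM there and to 27.0 to 101 CPM elsewhere. The 6 endothelial genes summed to 131 CPM there, inside their range of 33.9 to 292 CPM over all libraries. Hypothalamic identity factors, with Lhx8 alone at 0, were at 327 CPM, inside the 255 to 418 CPM of the other hypothalamic libraries. The 8 hypothalamic peptides, Pomc among them, were also highest there, at 4675 CPM against 53.4 to 3298 CPM elsewhere. The 4 genes chosen for the posterior lobe and for tanycytes, the glia that line the third ventricle, were at 140 CPM, inside their range of 61.3 to 161 CPM. The 6 choroid plexus genes were at 36.8 CPM (14.8 to 45.9 over all libraries), the 6 thalamic genes at 587 CPM (277 to 677) and the 5 muscle genes at 11.8 CPM (4.32 to 12.7). The part of blood and meninges in the pituitary counts was not tested.

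**Figure D4:**
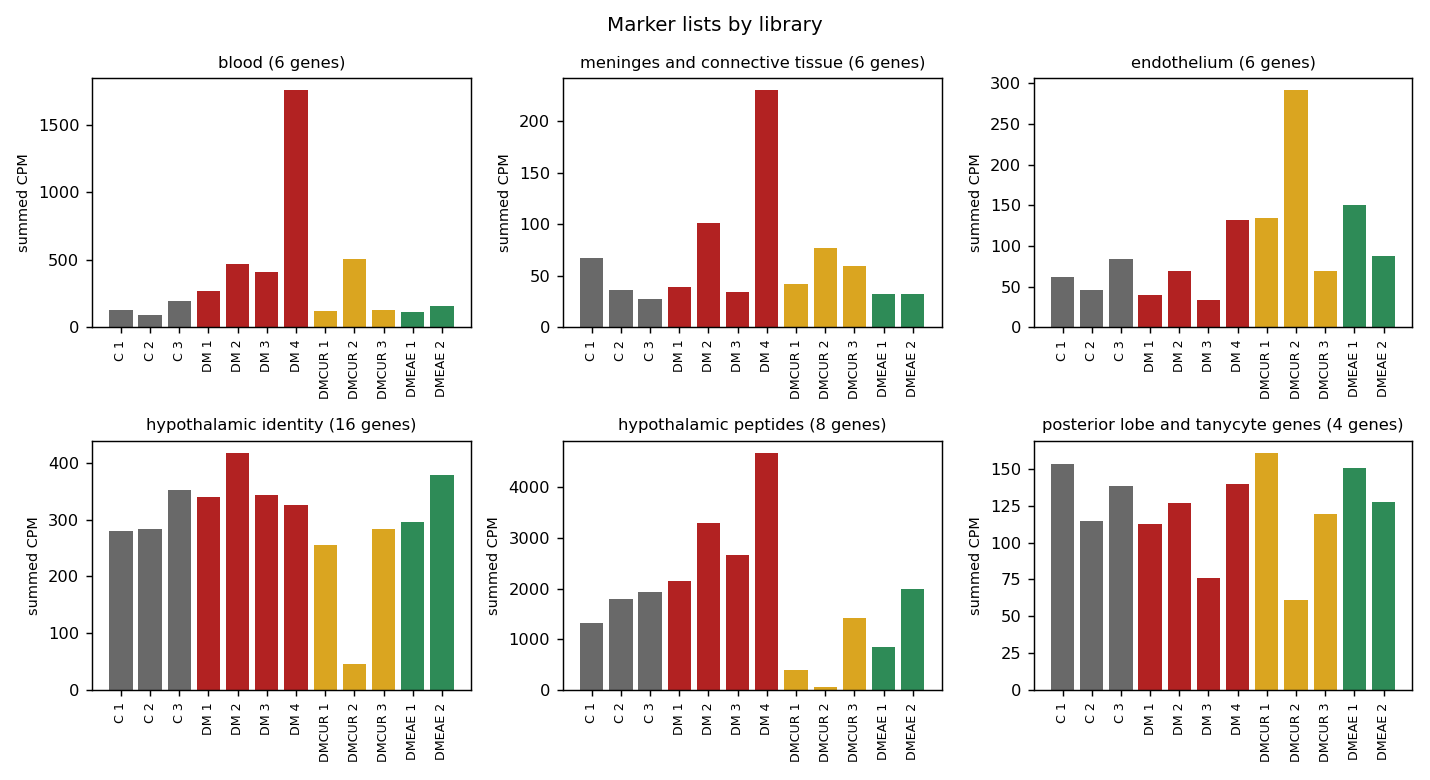
Summed CPM of 6 marker lists in each library (vertical axes, linear from 0; grey control, red diabetes, yellow curcumin, green garlic extract). Diabetes replicate 4 is highest for blood (1755 CPM), meninges (230 CPM) and hypothalamic peptides (4675 CPM). It is within the range of other libraries for hypothalamic identity. Curcumin replicate 2 is lowest for hypothalamic identity (45.2 CPM) and peptides (53.4 CPM).

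Group comparisons of the members follow these single libraries. Gh, Prl, Cga, Tshb and Pitx1, 5 of the 9, passed the filter on low counts, and Lhb, Fshb, Pou1f1 and Ghrhr did not. All comparisons used edgeR's quasi-likelihood test over 25562 genes with Benjamini-Hochberg adjustment at 0.05. Nothing in the labels says that the numbered libraries came from separate animals, so the spread behind each p-value is one between libraries and may be technical. Diabetes against control called 0 of the 5 members by edgeR (3 at an unadjusted p under 0.05), beside 0.0156% of all genes. DESeq2 called 0 members there, beside 2.07% of all genes. Curcumin against diabetes called 0 of 5 (2 at an unadjusted p under 0.05), beside 0.09% of all genes. DESeq2 called Cga, which was at 0 in every curcumin library, beside 4.14% of all genes. Garlic extract against diabetes called 0 of 5 by edgeR (1 at an unadjusted p under 0.05), beside 0% of all genes. DESeq2 called 0 of 5 there, beside 1.69% of all genes. Curcumin against control and garlic extract against control called 0 members by edgeR (0 at an unadjusted p under 0.05), each beside 0% of all genes. In these comparisons DESeq2 called 0 members, beside 0.0196 and 0% of all genes. Curcumin against garlic extract called 0 members by edgeR (0 at an unadjusted p under 0.05) beside 0% of all genes. DESeq2 called Cga there, beside 0.0274% of all genes, at a fitted log2 change of -26.9. The counts behind that call were 0 in every curcumin library and 0 and 5 in the garlic libraries. When a garlic library was left out of the fit, edgeR called Gh and Cga (without garlic replicate 1) or Cga alone (without garlic replicate 2) in curcumin against diabetes, beside 1.73 and 1.6% of all genes. The set was chosen from these libraries, so nothing is read from these counts.

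The members can be summarised by the median difference of mean log2 CPM over the 5 that passed the filter, which is not a value for all 9. Cga was in this set through the diabetes libraries alone, and without diabetes replicate 4 it left the set, so the library and the set changed together. Pitx1 passed mainly through the diabetes libraries too, at 1.27, 5.91 and 8.89 CPM in replicates 1, 2 and 4. Outside diabetes it exceeded 0.421 CPM only in curcumin replicate 2 (1.09 CPM). It stays in the set without diabetes replicate 4, so none of these medians is free of that selection. The median was 0.67 for diabetes against control, beside -0.22 over all genes tested, and -1.28 over the other 4 members without diabetes replicate 4. For curcumin against diabetes it was -2.12, beside 0.10 over all genes, and 0.01 over those 4 without that library. For garlic extract against diabetes it was -1.05, beside 0.26 over all genes, and 0.70 over those 4 without it. The change fitted by edgeR had another size and for some members another sign. For diabetes against control it was 5.49 for Gh and 3.73 for Prl, where the difference of mean log2 CPM was -0.68 and -0.48. The median fitted change over the 5 was 5.49, -3.91 and -5.29 for the 3 comparisons with diabetes. With groups of libraries at 0 the fitted values depend on the prior count and are no bound. Curcumin against control gave -1.08 beside -0.10, or 0.00 without control replicate 3. Garlic extract against control gave 0.38 beside 0.01, or -0.02 without control replicate 2. Without garlic replicate 1 it was -0.16, but over 6 members instead of 5, so the library and the set changed together there too. Curcumin against garlic extract gave -0.94 beside -0.12. The 3 comparisons with diabetes share the same diabetes libraries. The groups overlapped for all 5 filtered members in 4 of the 6 comparisons, with 1 exception in each of the other 2: Tshb in curcumin against diabetes and Pitx1, higher in both garlic libraries than in every control library at 1 and 8 counts against 0 or 1, in garlic extract against control. The share of all genes whose groups do not overlap was not computed. Nothing is therefore read from the separation of such small groups, for the members or for the axis genes below.

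Genes around the gland were read from lists of 66 further genes of the pituitary axis, of which 58 passed the filter. Of these 58, edgeR called 0 in every one of the 6 comparisons, beside the shares of all genes given for the members. At an unadjusted p under 0.05 there were 2, 7, 2, 3, 0 and 2 of them in the order above. That is 3.45, 12.1, 3.45, 5.17, 0 and 3.45% of the 58, beside 12.3, 17.2, 10.9, 2.34, 0.11 and 1.6% of all genes. DESeq2 called 3 of the 58 (5.17%) in curcumin against diabetes, beside 4.14% of all genes. Among the other pituitary regulators, Hesx1, a factor of the early gland, had at most 4 counts in any library. Lhx3, a LIM factor of the pituitary, was at 0, 1.58, 3.83 and 1.45 CPM in diabetes replicates 1 to 4 and at 0 to 0.546 CPM in the other libraries, so diabetes replicate 4 was not its highest library. Foxl2, a factor of gonadotrophs and thyrotrophs, was at 1.91 CPM in diabetes replicate 4, at 0 in diabetes replicates 1 to 3 and at 2.48 CPM in curcumin replicate 2. Isl1 and Nr5a1, which the hypothalamus also expresses, were at 25.4 and 19.5 CPM in diabetes replicate 4, the lowest of the 4 diabetes libraries for both.

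Pomc, the hormone precursor of corticotrophs and melanotrophs that arcuate neurons also make, was highest in the same library as Gh. It stood at 171, 238, 343 and 1089 CPM in diabetes replicates 1 to 4 and at 50.3, 60.3 and 68.7 CPM in control, so these groups did not overlap even without replicate 4. The log2 change was 2.94 ± 0.83 (SE, edgeR adjusted p = 0.201), or 2.07 ± 0.76 without replicate 4 (edgeR adjusted p = 0.467). It passed when a garlic library, which is in neither group, was left out of the fit, at an edgeR adjusted p = 0.00180 without garlic replicate 1 and 0.00444 without garlic replicate 2. Curcumin libraries were at 41.6, 3.87 and 75.1 CPM and garlic libraries at 8.95 and 104 CPM, all below every diabetes library. Their log2 changes against diabetes were -3.52 ± 0.85 (edgeR adjusted p = 0.0864; DESeq2 adjusted p = 0.0232) and -3.02 ± 0.99 (edgeR adjusted p = 0.320). Without diabetes replicate 4 they were -2.64 ± 0.78 (edgeR adjusted p = 0.216) and -2.15 ± 0.89 (edgeR adjusted p = 0.530). Curcumin against diabetes passed without curcumin replicate 2, at -2.94 ± 0.78 (edgeR adjusted p = 0.0283), where 7.79% of all genes passed. It also passed without garlic replicate 1 or 2 (edgeR adjusted p = 0.000178 and 0.000646), where 1.73 and 1.6% of all genes passed. Garlic extract against diabetes passed without garlic replicate 2, at -5.68 ± 1.04 (edgeR adjusted p = 0.0201), where 0.169% of all genes passed. Without garlic replicate 1 it was -2.16 ± 0.78 (edgeR adjusted p = 1), and each of these 2 fits leaves 1 garlic library assumed to vary like the other groups. Tbx19, a factor of corticotrophs, was at 0.569 CPM in diabetes replicate 4, the lowest of the 4 diabetes libraries (1.31, 7.49 and 3.31 CPM in the others). Pcsk1 and Pcsk2, which cleave the Pomc precursor, were at 40.7 and 204 CPM there, inside their ranges of 22.0 to 74.3 and 151 to 255 CPM.

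Among hypothalamic inputs to the gland, Ghrh, the releasing hormone for Gh, was at 3.11, 10.03, 11.1 and 14.0 CPM in diabetes replicates 1 to 4 and at 5.70, 5.91 and 11.3 CPM in control (log2 change 0.32 ± 0.77, edgeR adjusted p = 0.976). Sst, somatostatin, which restrains Gh release, was at 248, 305, 381 and 288 CPM in diabetes and 186, 213 and 261 CPM in control (log2 change 0.47 ± 0.27, edgeR adjusted p = 0.528). Adcyap1, the peptide PACAP, was lower in all 3 curcumin libraries (61.7, 30.6 and 91.4 CPM) than in all 4 diabetes libraries (158, 111, 116 and 124 CPM). Its log2 change was -1.05 ± 0.29 (edgeR adjusted p = 0.112; DESeq2 adjusted p = 0.0268). Without curcumin replicate 2 it was -0.69 ± 0.24 (edgeR adjusted p = 0.0836) and without diabetes replicate 4 it was -1.07 ± 0.32 (edgeR adjusted p = 0.223). It passed without garlic replicate 1 or 2 (edgeR adjusted p = 0.0309 and 0.0394). Avp, the peptide vasopressin, was at 706, 1519.8, 725 and 1846 CPM in diabetes and at 450, 606 and 742 CPM in control (log2 change 1.001 ± 0.95, edgeR adjusted p = 0.823). Drd2, the dopamine receptor that restrains prolactin cells, was at 13.9 CPM in diabetes replicate 4, inside the 6.64 to 47.0 CPM of the other libraries. Mtnr1a, a melatonin receptor of the pars tuberalis, was at 1.86 CPM in diabetes replicate 4 and at 0 to 0.737 CPM elsewhere. Eya3 and Cck, also listed for the pars tuberalis, were at 27.7 and 91.3 CPM there, and only Cck was the highest of the 4 diabetes libraries (44.0, 57.4 and 58.7 CPM in the others).

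Of 6 receptors for pituitary hormones 4 passed the filter, and edgeR called 0 of them in each comparison. Prlr, the prolactin receptor, did not overlap between diabetes and control, but the share of all genes that did not overlap was not computed. It was at 15.2, 17.4, 14.8 and 15.3 CPM in diabetes replicates 1 to 4 and at 39.7, 28.5 and 25.8 CPM in control. The log2 change was -1.002 ± 0.44 (edgeR adjusted p = 0.375; DESeq2 adjusted p = 0.269), which did not pass. Curcumin replicates 1 and 3, which shared the scarcity of low counts with the diabetes libraries, were at 39.7 and 33.4 CPM, curcumin replicate 2 was at 4.52 CPM, and garlic replicates were at 38.2 and 29.6 CPM. Against diabetes the log2 change was 0.73 ± 0.44 for curcumin (edgeR adjusted p = 0.432) and 1.11 ± 0.49 for garlic extract (edgeR adjusted p = 0.418). Curcumin against diabetes passed without curcumin replicate 2, at 1.26 ± 0.26 (edgeR adjusted p = 0.00786), where 7.79% of all genes passed. Choroid plexus, which is rich in this receptor, had summed marker levels of 14.8 to 45.9 CPM in control, 30.0 to 40.1 CPM in diabetes and 30.2 to 41.3 CPM in curcumin. In garlic replicates 1 and 2 these levels were 34.1 and 27.9 CPM. The part of choroid plexus or of sparse low counts in the Prlr levels was not tested. Ghr, the growth hormone receptor, was at 20.0, 26.8, 18.6 and 20.8 CPM in diabetes and at 22.5, 20.7 and 26.3 CPM in control (log2 change -0.10 ± 0.32, edgeR adjusted p = 0.985). Igf1, a target of growth hormone in many tissues, was at 11.2 CPM in diabetes replicate 4 and at 0, 2.82 and 0.957 CPM in diabetes replicates 1 to 3. Control was at 7.30, 3.15 and 5.58 CPM, so Igf1 overlapped between the groups (log2 change -0.51 ± 0.99, edgeR adjusted p = 0.964). Stat5b, which carries the signal of both receptors, was at 57.4 to 73.4 CPM in diabetes and 67.4 to 85.4 CPM in control (log2 change -0.18 ± 0.22, edgeR adjusted p = 0.909). Thra, a thyroid hormone receptor, was higher in all 4 diabetes libraries (570 to 805 CPM) than in control (467 to 548 CPM), with a log2 change of 0.36 ± 0.22 that did not pass (edgeR adjusted p = 0.578).

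**Figure D5:**
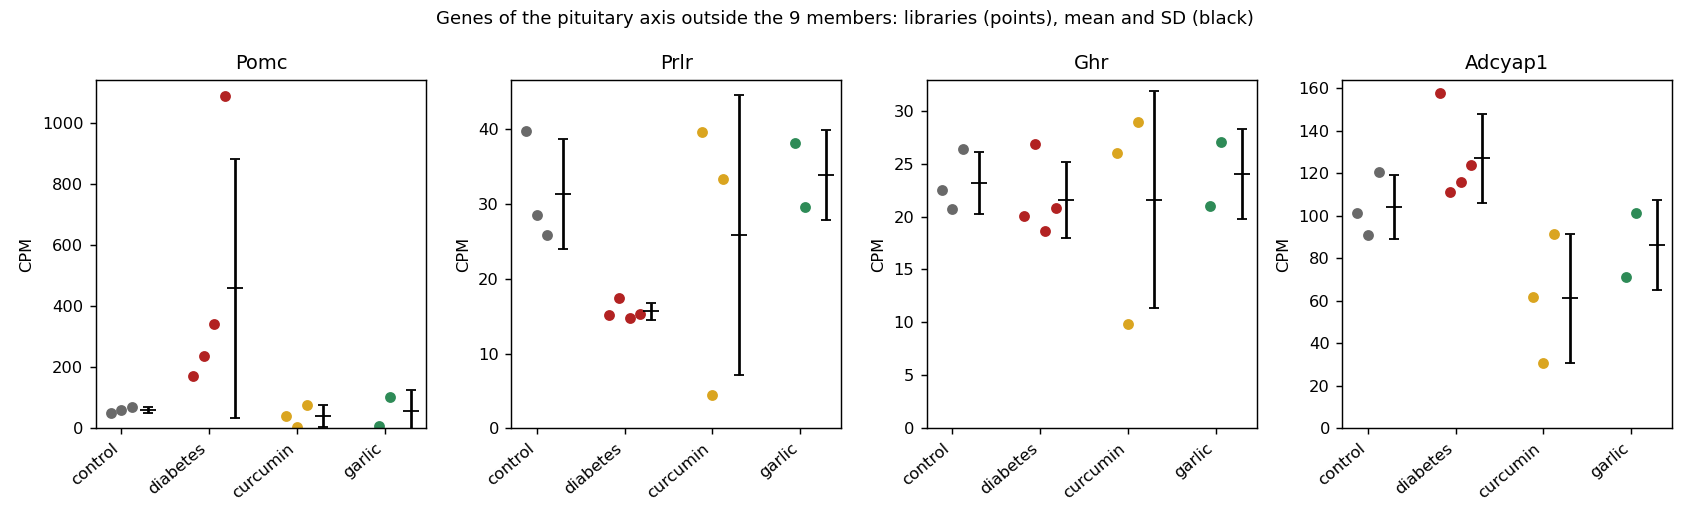
CPM (vertical axes, linear from 0) of Pomc, Prlr, Ghr and Adcyap1, 4 genes of the pituitary axis outside the 9 members, with 1 point per library and the group mean and SD in black. The 4 diabetes libraries span 171 to 1089 CPM for Pomc but lie together at 14.8 to 17.4 CPM for Prlr, below the 3 control libraries at 25.8 to 39.7 CPM.

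The genes whose levels most resembled the members were sought over the 12 libraries among 13765 genes. The pattern was the mean of centred log2 CPM of the 5 filtered members, and the correlations describe libraries in which diabetes replicate 4 is 1 extreme point. Fam114a1 was closest (Pearson 0.96, Spearman 0.77, and Pearson 0.78 without diabetes replicate 4), at 15.3 CPM in that library and at most 7.25 CPM elsewhere. Perp followed (0.90, 0.78 and 0.73) and then Klf6, a zinc-finger factor (0.87, 0.74 and 0.74). Srfbp1, Pfn4, Rps25, Pnrc2 and Lhpp had Pearson correlations of 0.81 to 0.83, of which Pfn4, Rps25 and Pnrc2 fell to 0.23, 0.19 and 0.07 without that library. With Gh alone, Klf6 was closest (0.93, or 0.85 without diabetes replicate 4). With Cga alone, Epcam, an adhesion molecule of epithelial cells, was closest (0.89, or 0.79 without it), at 10.7 CPM in diabetes replicate 4 and at most 4.39 CPM elsewhere.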

How the data were processed

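Bulk RNA from the hypothalamus was measured in 12 libraries. Stranded poly-A libraries from Trizol-extracted RNA were sequenced as paired reads, per the labels' protocols. The authors deposited raw read counts per gene as 1 table, made with FastQC, featureCounts and the GRCm39 genome per the submitters' processing notes. For the aligner, annotation release, strand setting and treatment of multi-mapping or overlapping reads, the sources used here give no entry.

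Symbols came from GENCODE M21 and RefSeq (51486 of 78334 IDs, 65.7%, holding 97.8% of the counts). Genes were filtered with filterByExpr by group, scaled by TMM and fitted over all 12 libraries with edgeR 4.0.16 in R 4.3.3, and levels are CPM over scaled library size. Log2 CPM used a prior count of 2. The common dispersion was 0.653. The script was tested on simulated data. No 2 libraries agreed within sampling noise (chi-square at least 20 per degree of freedom for each pair). Alternatives were RLE scaling, no filter, DESeq2 1.42.0, a replicate block, leaving out each library, and leaving out diabetes replicate 4 with curcumin replicate 2. The 9 members, the axis and marker lists and the tests were chosen with earlier results of these data known. All members were named, with Pomc, genes that passed and up to 3 others of highest mean per axis list; Hesx1, Lhx3, Tbx19, Foxl2, Ghrh, Igf1 and Nkx2-1 were added after their values were seen, and some genes are not reported here. The counts of scarce and absent genes by library were also added after the data were seen.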

Additional observations from a re-analysis of the deposited data

Results flagged for a closer look

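In 28 genes read in the 4 diabetes libraries, 6 had a highest or lowest library whose gap to its nearest neighbour exceeded Dixon's 95% limit for the share of the range, where chance gives about 1 group in 20. The 9 members were chosen with these levels known, so that rate does not apply to them and for them this is a description. Where the other 3 libraries are at 0, as for Gh, Prl, Fshb and Mtnr1a, the gap is the whole range by construction. Diabetes replicate 4 was the library in 5 of them. It was far above the other diabetes libraries for Gh (732.5 CPM), Prl (97.38 CPM), Cga (19.43 CPM), Fshb (3.618 CPM) and Mtnr1a (1.861 CPM). Diabetes replicate 3 was far above the others for Thra, a thyroid hormone receptor (804.9 CPM).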

How the results depend on the processing

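Of the 5 members and 58 axis genes tested, edgeR with all libraries called 0 in each of the 6 comparisons. Without the low-count filter 8 members, 65 axis genes and 50209 genes in all were tested. In diabetes against control, curcumin against diabetes and garlic extract against diabetes edgeR then called 4, 3 and 2 members. Axis genes called were 2, 8 and 3, beside 0.932, 2.25 and 0.709% of all genes. For curcumin against control and against garlic extract 1 and 3 axis genes were called, beside 0.0856 and 0.0896% of all genes. DESeq2 called 1 member (Cga) in curcumin against diabetes and 1 in curcumin against garlic extract, beside 4.14 and 0.0274% of all genes. It also called 3 axis genes in curcumin against diabetes (Pomc, Sst and Adcyap1). Without diabetes replicate 4 and curcumin replicate 2 together, the member median was -1.29, 0.23 and 0.71 for diabetes against control, curcumin against diabetes and garlic extract against diabetes, over 4 members instead of 5, each opposite to its value with all libraries. Then 3 axis genes passed in curcumin against diabetes (Sst, Prlr and Cck), beside 4.32% of all genes. In curcumin against control 1 passed (Cck), beside 0.0643% of all genes. The cause was not tested.

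Leaving out 1 library of the groups compared at a time, members called stayed at 0. Leaving out a garlic library, which is in neither group, 2 members (without replicate 1) and 1 (without replicate 2) were called in curcumin against diabetes, with 3 axis genes each (Pomc, Adcyap1 and Avp), and 1 axis gene each (Pomc) in diabetes against control, where 194 and 163 of all genes passed. These fits tested 6 members and 31107 and 30759 genes. With libraries of the groups compared, the member median ranged from -1.28 to 0.96, -2.58 to 0.0059, -1.89 to 0.70, -1.86 to 0.00, -0.16 to 0.94 and -1.19 to -0.42 over the 6 comparisons in the order of the report. These medians cover 4 to 6 members, depending on the library left out. Axis genes called ranged from 0 to 6 for curcumin against diabetes (6 without curcumin replicate 2, with 7.79% of all genes: Pomc, Sst, Slc6a3, Avp, Prlr and Cck). For curcumin against control the range was 0 to 1 (Cck without curcumin replicate 2, with 0.193% of all genes). In diabetes against control axis genes called stayed at 0, as they did in the garlic comparisons while no garlic library was left out.

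Replicate numbers gave no clear pairing: of 15 pairs with the same number, 4 had deviations from group means correlated above 0.1 (range -0.18 to 0.25), and 5 of 12 libraries correlated best with their own number. All 4 of those pairs held a garlic library. The deviations of the 2 garlic libraries mirror each other by construction, and no other library shares the number of diabetes replicate 4. This check therefore cannot exclude pairing. With the replicate block, 0 members and 0 axis genes were called, and the member median was 0.42, -1.39 and -0.33 for the 3 comparisons with diabetes. Over all genes, calls for diabetes against control, curcumin against diabetes and garlic extract against diabetes were 4, 23 and 0 by edgeR, 1, 47 and 1 with the block, 6, 123 and 0 with RLE scaling, 468, 1128 and 356 without the filter, and 528, 1059 and 432 by DESeq2. Of the likeness values, 15 of 18 changed by 0.1 or more under Spearman correlation and 15 of 18 without diabetes replicate 4, none to the opposite sign. The groups hold 2 to 4 libraries, and low counts were sparse in 6 of the 12.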
